A study of Mus musculus with 16 samples.

Results

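The serotonin receptor genes described here are the 10 genes Htr1a, Htr1b, Htr1d, Htr1f, Htr2a, Htr2b, Htr2c, Htr3a, Htr3b and Htr7, found in the count tables by the Ensembl identifiers that carry these symbols in the mouse annotation. All 10 were among the 52636 genes listed, and all 10 were among the 21371 genes that passed the filter on low counts. RNA was sequenced from the L3 to L6 dorsal root ganglia (DRGs) of 16 male C57BL/6J mice aged 3 to 4 months, with 4 mice in each of 4 groups and 1 library per mouse. In the SNI-Saline and SNI-DMI groups the common peroneal and sural branches of the sciatic nerve of the left hindleg had been ligated and cut (tibial spared nerve injury, SNI), and in the Sham-Saline and Sham-DMI groups the surgery was a sham. Desipramine (DMI), a tricyclic antidepressant best known as a blocker of noradrenaline reuptake, was given to the DMI groups for 3 weeks as 2 intraperitoneal injections per day of 15 mg/kg each, and the saline groups received saline alone. By the labels this treatment began 4 weeks after the operation, and by the methods section 4 months after it.

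Serotonin (5-hydroxytryptamine, 5-HT) acts through several families of receptors. The 5-HT1 receptors couple to Gi proteins and lower cyclic AMP, the 5-HT2 receptors couple to Gq and activate phospholipase C, and the 5-HT7 receptor couples to Gs and raises cyclic AMP. The 5-HT3 receptor is the exception among them, a cation channel of 5 subunits opened directly by serotonin. Serotonin released from platelets, mast cells or descending fibres is known to excite or sensitize some nociceptors through the channel and the Gq-coupled and Gs-coupled receptors. It is also known to restrain transmitter release through 5-HT1 receptors, some of which are the targets of the triptan drugs.

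Levels are given as CPM, a gene's reads scaled to 1000000 reads of its library after normalization. Between 41194238 and 73920332 reads per library fell on genes. The defining markers of sensory neurons had summed levels of 7090 to 8950 CPM over the 16 mice, and the labels give DRG as the cell type but spinal cord as the tissue. Of the 10 spinal cord markers, Aqp4 (a mean of 10.6 CPM) and Slc1a2 (8.68 CPM), which satellite glia can also express, made up most of the sum, while Mnx1 was at 0 in 9 libraries, Olig2 in 5 and Slc32a1 in 5. Library numbers in the labels ran from 17 to 24 in the DMI groups and from 33 to 40 in the saline groups, so the order of the libraries and the treatment cannot be told apart. In these bulk samples fewer cells of a type and less RNA per cell cannot be told apart either.

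The receptor genes differed from each other far more than the groups did. Compared per kilobase of exon, Htr3a, the subunit that can form a working 5-HT3 channel alone, had the highest level, with 101 ± 16.3 CPM per kb (SD, n = 16), which was higher than 98.2% of the genes tested. Htr1d followed with 14.4 ± 1.37 CPM per kb and Htr3b, the second channel subunit, with 11.7 ± 1.84. These levels made the ion channel subunits 71.9% to 82.3% of the summed per-kb level of the 10 genes in a mouse, and Htr3a alone 63.5% to 73.8%. The 4 Gi-coupled receptor genes together held 13.9% to 21.8%, Htr7 2.86% to 4.62% and the 3 Gq-coupled receptor genes 0.797% to 1.82%.

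Htr7 (5.39 ± 0.487 CPM per kb) and Htr1b (5.15 ± 0.590) stood next in the order. Htr1a (2.49 ± 0.214), Htr1f (2.06 ± 0.477) and Htr2a (1.72 ± 0.291) lay close to the middle of all genes tested, between the percentiles 42.6 and 48.4. Htr2b and Htr2c were near the limit of detection. Htr2b had 0.0608 ± 0.0284 CPM per kb from 2 to 13 reads per library, and Htr2c 0.0233 ± 0.0116 from 3 to 30 reads. A gap between neighbours in this order was larger than the spread over the 16 mice in 4 places. Htr3a was above Htr1d in 16 of 16 mice with a ratio of the means of 7.04, Htr3b above Htr7 in 16 of 16 (2.18), Htr1b above Htr1a in 16 of 16 (2.07) and Htr2a above Htr2b in 16 of 16 (28.2). The ranges of the other neighbours overlapped, and Htr7 was above Htr1b in 11 of 16 mice.

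**Figure D1:**
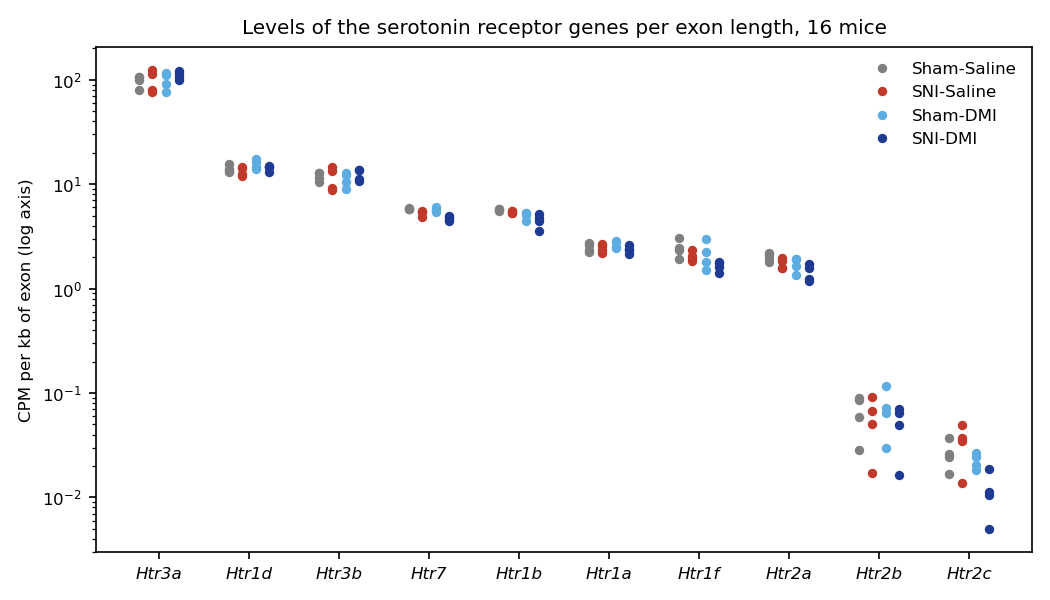
Level of each serotonin receptor gene in CPM per kilobase of merged exon (log axis), with 1 point per mouse and the groups in colour. Htr3a lies above all others with a mean of 101, 7 genes lie between means of 1.72 and 14.4, and Htr2b (0.0608) and Htr2c (0.0233) lie far below.

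Htr3a and Htr3b are neighbours in the genome as well as partners in the receptor. On GRCm38, Htr3a (ENSMUSG00000032269) lies at chr9:48899213-48911099 and Htr3b (ENSMUSG00000008590) at chr9:48935008-48964990, both on the minus strand, and 23909 bases without another protein-coding gene separate them. Their levels rose and fell together from mouse to mouse. The ratio of Htr3a to Htr3b per kb stayed between 7.53 and 9.49 (median 8.61) with a coefficient of variation of 6.19% over 16 mice, while Htr3a and Htr3b CPM alone varied by 16.1% and 15.7%.

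Htr3a was at 165, 220, 221 and 207 CPM in the Sham-Saline mice, 258, 235, 157 and 165 in SNI-Saline, 244, 189, 233 and 159 in Sham-DMI and 223, 238, 206 and 249 in SNI-DMI. Htr3b was at 25.3, 31.2, 27.5 and 31.1 CPM, then 35, 32.1, 21.2 and 22.1, then 31.2, 25.0, 29.6 and 21.6, and then 27.2, 33.4, 26.2 and 33.3 in the same order of mice. In SNI-Saline both genes were high in replicates 1 and 2 and low in replicates 3 and 4, and the ratio there stayed between 8.49 and 8.64 (coefficient of variation 0.737%). In Sham-Saline the ratio ran from 7.53 to 9.31 and varied by 9.76%, about as much as Htr3b itself did there (9.95%). The groups overlapped in every comparison for both genes. For Htr3a the log2 fold changes were 0.0035 (SNI-Saline versus Sham-Saline, 95% interval -0.31 to 0.32), 0.17 (SNI-DMI versus SNI-Saline, -0.15 to 0.49), 0.02 (Sham-DMI versus Sham-Saline, -0.30 to 0.34) and 0.15 (SNI-DMI versus Sham-DMI, -0.16 to 0.47), and no call was made for either subunit.

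**Figure D2:**
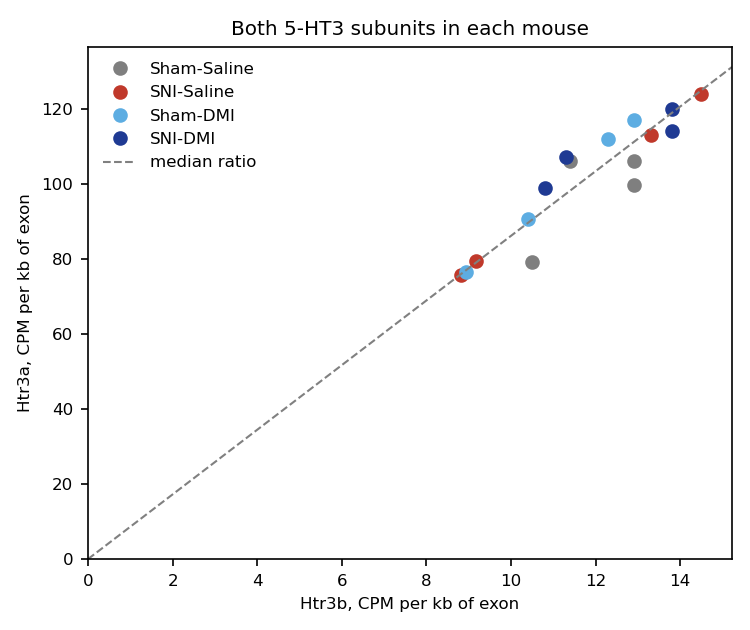
Htr3a against Htr3b in CPM per kilobase of exon, with 1 point per mouse, the groups in colour and a dashed line at the median ratio of 8.61. The 16 points follow the line, with ratios between 7.53 and 9.49.

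As a description over the 16 libraries, which share preparation and sequencing, the genes most like each receptor gene were ranked by Pearson's r of the deviations of log2 CPM from the group means. Among the 21370 other genes, Htr3b ranked second for Htr3a (r = 0.946) after Scgn (0.952) and before Comp (0.944). Htr3a ranked first for Htr3b (0.946), before Scgn (0.922) and Hoxd8 (0.914). No other pair of receptor genes came close, with the next highest r at 0.562 for Htr3a and Htr7. Htr2b and Htr2c, with means under 1 CPM, were left out of this ranking. The genes most like the other members were B3glct for Htr1a (0.941), Il13ra1 for Htr1b (0.876), Ndc1 for Htr1d (0.875), 9930021J03Rik for Htr1f (0.940), AC134468.1 for Htr2a (0.967) and Gm29609 for Htr7 (0.893).

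The first comparison, SNI-Saline versus Sham-Saline, asks what the injury alone did. None of the 10 receptor genes changed by edgeR's quasi-likelihood test at a Benjamini-Hochberg adjusted p under 0.1, where 12.0% of all genes tested did. There were 0 with an unadjusted p under 0.05, which 23% of all genes had, and 0 calls with DESeq2. Of the 10 log2 fold changes 8 were below 0, with a median of -0.075, beside a median of -0.0006 over all genes. The closest was Htr7, the Gs-coupled receptor, which was at 19.5, 20.2, 19.7 and 19.6 CPM in Sham-Saline and at 18.9, 18.5, 16.4 and 18.5 in SNI-Saline. Every injured mouse was below every sham mouse, as for 15.4% of all genes in this comparison, and Htr7 was the only receptor gene of the 10 whose groups did not overlap. The log2 fold change was -0.13 (SE 0.0598) with an adjusted p of 0.219 by edgeR, and the exact two-sided permutation p was 0.0286, the smallest that 4 against 4 mice can give.

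Intervals for the other members show what this comparison could resolve, with the spread estimated over all 16 libraries. Htr1a (-0.21 to 0.17 on the log2 scale), Htr1b (-0.24 to 0.12) and Htr1d (-0.25 to 0.078) had the narrowest intervals after Htr7. Htr1f (-0.62 to 0.12), Htr2a (-0.47 to 0.079) and Htr3b (-0.37 to 0.25) had wider intervals. Those of Htr2c (-0.43 to 1.17) and Htr2b (-1.30 to 0.91), with few reads, were the widest.

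With DMI after injury, SNI-DMI versus SNI-Saline, Htr2c was lower, the gene of the 5-HT2C receptor, which is known mainly from the brain and choroid plexus. It was the 1 receptor gene called of 10, where 2.93% of all genes were called, 1.61% in this direction. An unadjusted p under 0.05 by edgeR was found for 4 of 10 (Htr1b, Htr2a, Htr2c and Htr7), beside 18.5% of all genes. Htr2c alone also met the cut-offs of the study (a log2 change of at least 0.32 in size and an unadjusted p under 0.05), which 5.73% of all genes met. It was at 0.127, 0.342, 0.321 and 0.458 CPM in SNI-Saline and at 0.174, 0.0459, 0.0990 and 0.106 in SNI-DMI, that is 7 to 30 reads against 3 to 10. Replicate 1 of SNI-Saline lay within the range of the treated mice, so the groups overlapped. The log2 fold change was -1.56 (SE 0.422, 95% interval -2.45 to -0.68, adjusted p = 0.0883 by edgeR), and the exact permutation p was 0.0571. In Sham-Saline Htr2c was at 0.157, 0.226, 0.343 and 0.242 CPM and in Sham-DMI at 0.171, 0.247, 0.225 and 0.189. The SNI-DMI mean was the lowest of the 4 groups (0.106 CPM) and the SNI-Saline mean the highest (0.312 CPM), and SNI-DMI replicate 1 lay above replicate 1 of each other group.

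The Htr2c call rests on few reads and did not hold in most of the fits without 1 library. It was made without Sham-Saline replicate 1 or 3 or Sham-DMI replicate 1, 2 or 4, and lost without any of the other 11 libraries, with adjusted p-values of 0.0568 to 0.258 and log2 fold changes of -1.88 to -1.32 over the 16 fits. Part of this loss was not particular to Htr2c. Over all genes 626 were called in this comparison with every library in the fit. That number fell to 0 when the library left out was SNI-Saline 1, SNI-Saline 3, or any of SNI-DMI 1 to 3. In the rest of the 11 fits, from 38 (without SNI-Saline 4) to 984 (without SNI-Saline 2) genes were called, but not Htr2c. DESeq2 gave no adjusted p for Htr2c in this comparison. The difference between both DMI effects (the effect under SNI minus the effect under sham) was -1.35 (SE 0.582, 95% interval -2.57 to -0.12) with an unadjusted p of 0.0328 and an adjusted p of 0.619 by edgeR, a comparison in which 0% of all genes and 0 of 10 receptor genes were called (1 with an unadjusted p under 0.05, beside 7.92% of all genes, and 0 with DESeq2). Of the 10 spinal cord markers 5 were tested. Slc1a2 was called lower in SNI-DMI versus SNI-Saline (-0.49), beside 1.61% of all genes, and Aqp4 and Slc1a2 in the averaged DMI effect, beside 15.8%. The summed level of the 10, which was not tested, overlapped between SNI-Saline and SNI-DMI, with 22.7 to 24.6 CPM in Sham-Saline mice and 19.8 to 29.3 CPM in SNI-Saline mice, and with 16.7 to 20.8 CPM in Sham-DMI mice and 17.7 to 21.1 CPM in SNI-DMI mice. The 5 choroid plexus markers summed to 4.56 to 6.07 CPM in SNI-Saline and 4.58 to 5.37 in SNI-DMI, and Otx2 was at 0 in 16 libraries. Kl (a mean of 2.78 CPM) and Clic6 (1.90 CPM) made up most of this sum. Of the 4 tested, 3 were lower and 1 higher in SNI-DMI versus SNI-Saline, at log2 fold changes of -1.32 to 0.10, with 0 called. After injury in saline mice these 4 ran from -0.32 to 0.78, also with 0 called. The part of such tissue in the Htr2c values was not tested.

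Htr1b, a Gi-coupled receptor of sensory terminals, separated the same groups without a call. It was at 25.3, 25.1, 26.2 and 26.1 CPM in SNI-Saline and at 22.2, 16.7, 21.2 and 24.2 in SNI-DMI. The highest treated mouse was below the lowest saline mouse, as for 13.3% of all genes, and replicate 2 of SNI-DMI was the lowest of all 16. The log2 fold change was -0.28 (SE 0.0849, adjusted p = 0.105 by edgeR, exact permutation p = 0.0286). With DESeq2 2 of the 10 genes were called, Htr1b (adjusted p = 0.0354) and Htr7 (0.0714). In this comparison DESeq2 called 1859 of 38180 genes and edgeR 626 of 21371, from the same 16 libraries.

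Htr1f, also Gi-coupled, was at 4.76, 5.23, 6.01 and 5.07 CPM in SNI-Saline and at 4.58, 4.17, 3.64 and 4.48 in SNI-DMI, again without overlap. Its log2 fold change was -0.32 (SE 0.178, adjusted p = 0.340 by edgeR, exact permutation p = 0.0286). Htr7 was at 15.7, 15.2, 16.7 and 16.6 CPM in SNI-DMI against the 16.4 to 18.9 of SNI-Saline given above (log2 fold change -0.17, SE 0.0601, adjusted p = 0.142 by edgeR). Htr2a, the Gq-coupled receptor known from platelets and cortex, was at 10.2, 8.88, 11.1 and 8.92 CPM in SNI-Saline and at 9.55, 6.63, 8.81 and 6.90 in SNI-DMI (-0.29, SE 0.131, adjusted p = 0.242). The remaining log2 fold changes were -0.18 for Htr2b, -0.031 for Htr1a, 0.11 for Htr1d and 0.12 for Htr3b, so 7 of 10 were below 0, with a median of -0.17 beside -0.0047 over all genes.

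**Figure D3:**
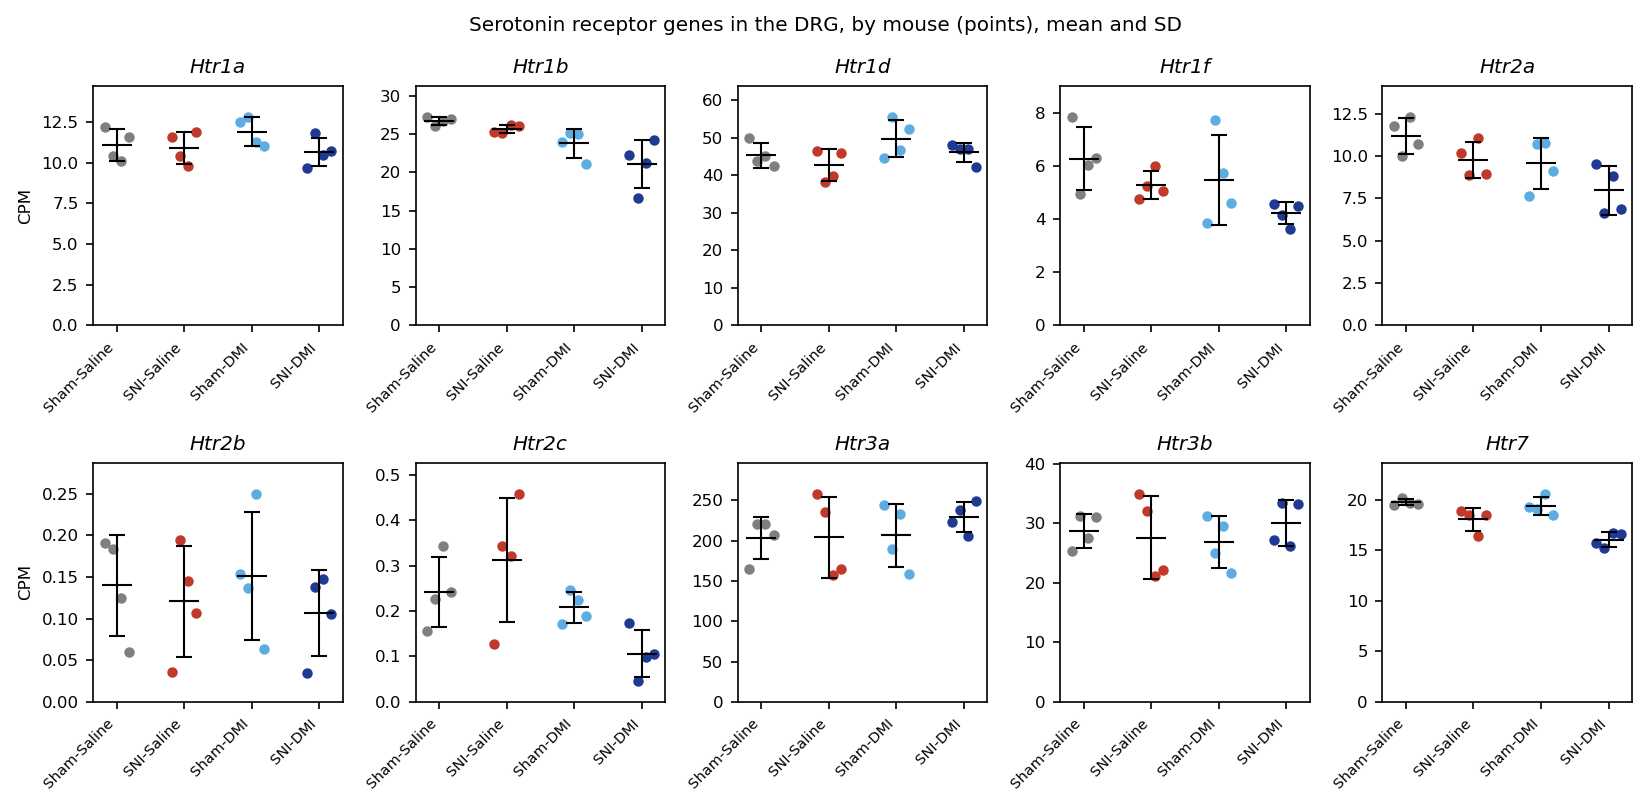
CPM of the 10 serotonin receptor genes in each mouse (points) with the mean and SD of each group of 4. SNI-DMI has the lowest mean of the 4 groups for Htr1a, Htr1b, Htr1f, Htr2a, Htr2b, Htr2c and Htr7, with 16 CPM for Htr7 against 18.1 to 19.7 in the other groups.

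In mice without nerve injury, Sham-DMI versus Sham-Saline, 0 of 10 receptor genes were called by edgeR (0 with an unadjusted p under 0.05, beside 30.6% of all genes, and 0 with DESeq2), although this comparison had the most calls of the 4 over all genes, 23.4%. Htr1b was at 27.2, 26.0, 26.7 and 27.0 CPM in Sham-Saline and at 23.9, 25.1, 25.0 and 21.1 in Sham-DMI. These groups did not overlap, as for 17.1% of all genes (log2 fold change -0.17, SE 0.0847, adjusted p = 0.184 by edgeR, exact permutation p = 0.0286). Htr7 was at 19.3, 19.1, 20.6 and 18.5 CPM in Sham-DMI, within reach of the Sham-Saline mice (-0.027, SE 0.0598). Htr1d, the most abundant Gi-coupled member, was at 50, 43.7, 45.2 and 42.4 CPM in Sham-Saline and at 44.7, 55.5, 46.7 and 52.4 in Sham-DMI (0.14, SE 0.0788). The other log2 fold changes ran from -0.22 for Htr2a and Htr2c to 0.10 for Htr1a, and the 95% interval for Htr2c was -1.06 to 0.62.

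After injury under DMI, SNI-DMI versus Sham-DMI, Htr7 was lower. This was 1 of 10 receptor genes, where 0.402% of all genes were called and 0.0281% called lower. The mice of SNI-DMI, at 15.2 to 16.7 CPM, were all below those of Sham-DMI, at 18.5 to 20.6 CPM, a separation that 5.04% of all genes showed. The log2 fold change was -0.27 (SE 0.0601, 95% interval -0.40 to -0.14, adjusted p = 0.0786 by edgeR, exact permutation p = 0.0286). The call was close to the threshold. It was made in 5 of 16 fits without 1 library (without Sham-Saline 1, SNI-Saline 3, Sham-DMI 1 or 4, or SNI-DMI 3) and lost in the other 11, with adjusted p-values of 0.0549 to 0.292 and log2 fold changes of -0.31 to -0.23. Htr2c (-0.97, SE 0.440, adjusted p = 0.384) and Htr1f (-0.38, SE 0.178, adjusted p = 0.406) were not called. Both met the cut-offs of the study, 0.32 for the size of the log2 change and 0.05 for the unadjusted p, which 5.41% of all genes met and which Htr7 missed by its size. Htr1f, Htr2c and Htr7 were the 3 of 10 with an unadjusted p under 0.05 by edgeR, beside 12.1% of all genes.

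The receptor genes without a call in any of these 4 contrasts included Htr1a, Htr1d, Htr1f, Htr2a and Htr2b. Htr1a, the Gi-coupled autoreceptor of serotonin neurons in the brain, was the steadiest, at 12.2, 10.4, 10.1 and 11.6 CPM in the Sham-Saline mice, 11.6, 10.4, 9.81 and 11.9 in SNI-Saline, 12.5, 12.8, 11.3 and 11 in Sham-DMI and 9.69, 11.8, 10.5 and 10.7 in SNI-DMI. The highest group mean of Htr1a was 1.11 times the lowest. Htr1d was at 46.6, 38.3, 39.7 and 46.0 CPM in SNI-Saline and at 48.0, 47.0, 47.1 and 42.3 in SNI-DMI, so its DMI mice were not separated from the saline mice. Htr1f was spread widely among sham mice, with 7.83, 4.94, 6.03 and 6.28 CPM in Sham-Saline and 3.84, 7.71, 5.74 and 4.60 in Sham-DMI. The Sham-DMI range of Htr1f was the widest of its 4 groups. Htr2b, the 5-HT2B receptor known from heart valves and vessels, was between 0.0604 and 0.191 CPM in the Sham-Saline mice, 0.0362 and 0.195 in SNI-Saline, 0.0631 and 0.250 in Sham-DMI and 0.0349 and 0.148 in SNI-DMI, and these ranges overlapped throughout. Htr2a, which was called in the averaged DMI effect, was at 11.8, 9.98, 12.3 and 10.7 CPM in Sham-Saline and at 7.65, 10.7, 10.8 and 9.14 in Sham-DMI.

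Averaging the 2 injury contrasts over saline and DMI used all 16 mice and gave 1 call among the receptor genes. Htr7 was lower after SNI by a log2 of -0.20 (SE 0.0424, 95% interval -0.29 to -0.11, adjusted p = 0.0122 by edgeR). It was the 1 called of 10, where 16.1% of all genes were called and 8.43% called lower. The call was kept in 6 of 6 other alternatives, with adjusted p-values of 0.000455 to 0.0273, and in 16 of 16 fits without 1 library, 0.00717 to 0.0409. The change was under the study's cut-off of 0.32, with group means of 19.7 and 19.4 CPM in the sham groups and 18.1 and 16 in the SNI groups. Injury under DMI and under saline were not shown to differ for Htr7, with a difference of -0.15 (SE 0.0848, unadjusted p = 0.102, adjusted p = 0.669 by edgeR).

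Htr1f (-0.31, adjusted p = 0.120 by edgeR) and Htr2a (-0.23, 0.124) stayed outside the threshold in the averaged injury effect. DESeq2 called both beside Htr7, 3 of 10, where it called 4085 of 38180 genes. By edgeR these 3 had an unadjusted p under 0.05, beside 25.6% of all genes. Htr1f and Htr2a are known from the itch-sensing neurons that express Nppb and Sst. The 5 markers of these pruriceptors had log2 fold changes below 0 in the averaged injury effect, with 2 called lower, beside 8.43% of all genes. Their sum ran from 128 to 162 CPM among Sham-Saline mice, from 117 to 127 among SNI-Saline mice, from 127 to 142 among Sham-DMI mice and from 102 to 137 among SNI-DMI mice. Of the 5 markers of non-peptidergic nociceptors 4 were called lower, beside the same 8.43%. Their sum ran from 1170 to 1530 CPM among Sham-Saline mice, from 1020 to 1210 among SNI-Saline mice, from 1170 to 1370 among Sham-DMI mice and from 1020 to 1250 among SNI-DMI mice. Of the 8 markers of injured neurons 8 were called higher, and their sum ran from 288 to 317 CPM among Sham-Saline mice and from 523 to 587 among SNI-Saline mice. The part of these cells in the receptor values was not tested.

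Averaging the DMI contrasts over both surgeries gave 4 of 10 receptor genes called, all of them lower, where 30.6% of all genes were called and 15.8% called lower. Their log2 fold changes were -0.89 for Htr2c (SE 0.291, adjusted p = 0.0343 by edgeR), -0.26 for Htr2a (SE 0.0924, adjusted p = 0.0510), -0.23 for Htr1b (SE 0.0599, adjusted p = 0.0115) and -0.10 for Htr7 (SE 0.0424, adjusted p = 0.0979). Htr1d was the highest of the others at 0.12 (SE 0.0557, adjusted p = 0.117), and the median of the 10 was -0.08 beside -0.013 over all genes. The 4 called genes and Htr1d had an unadjusted p under 0.05 by edgeR, 5 of 10 beside 35.4% of all genes. Removing trends of each library on GC content and exon length left 1 receptor gene called, Htr1d (0.14). Htr1b was then at -0.13 (adjusted p = 0.136), Htr2c at -0.71 (0.10), Htr7 at -0.077 (0.257) and Htr2a at -0.076 (0.576).

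Without 1 library the averaged DMI calls of Htr1b and Htr2c were kept in 16 of 16 fits (adjusted p of 0.00482 to 0.0324 and 0.0140 to 0.0874 by edgeR). That of Htr2a was kept in 9 of 16 (0.0298 to 0.129) and lost without Sham-Saline 1 or 3, SNI-Saline 1 or 3, Sham-DMI 1, or SNI-DMI 2 or 4. The Htr7 call was made in 2 of 6 other alternatives (adjusted p of 0.0730 to 0.315) and in 1 of 16 fits, that without SNI-Saline 3 (0.0442), with 0.117 to 0.272 in the others. Htr1d, not called in the main fit, was called higher in 2 of 6 other alternatives, DESeq2 and the removal of trends. It was also called higher in 6 of 16 fits without 1 library (adjusted p of 0.0434 to 0.238 by edgeR). Over the same contrast 5 of 5 neutrophil markers were called lower, beside 15.8% of all genes. Their sums were 14.3 to 47.4 CPM in SNI-Saline and 3.90 to 12.8 in SNI-DMI. In the sham mice the sums overlapped, with 9.60 to 36.8 CPM in Sham-Saline and 3.62 to 15.4 in Sham-DMI. Of the markers of injured neurons 7 of 8 were called higher, beside 14.8% of all genes. The part of these cells in the receptor values was not tested.

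**Figure D4:**
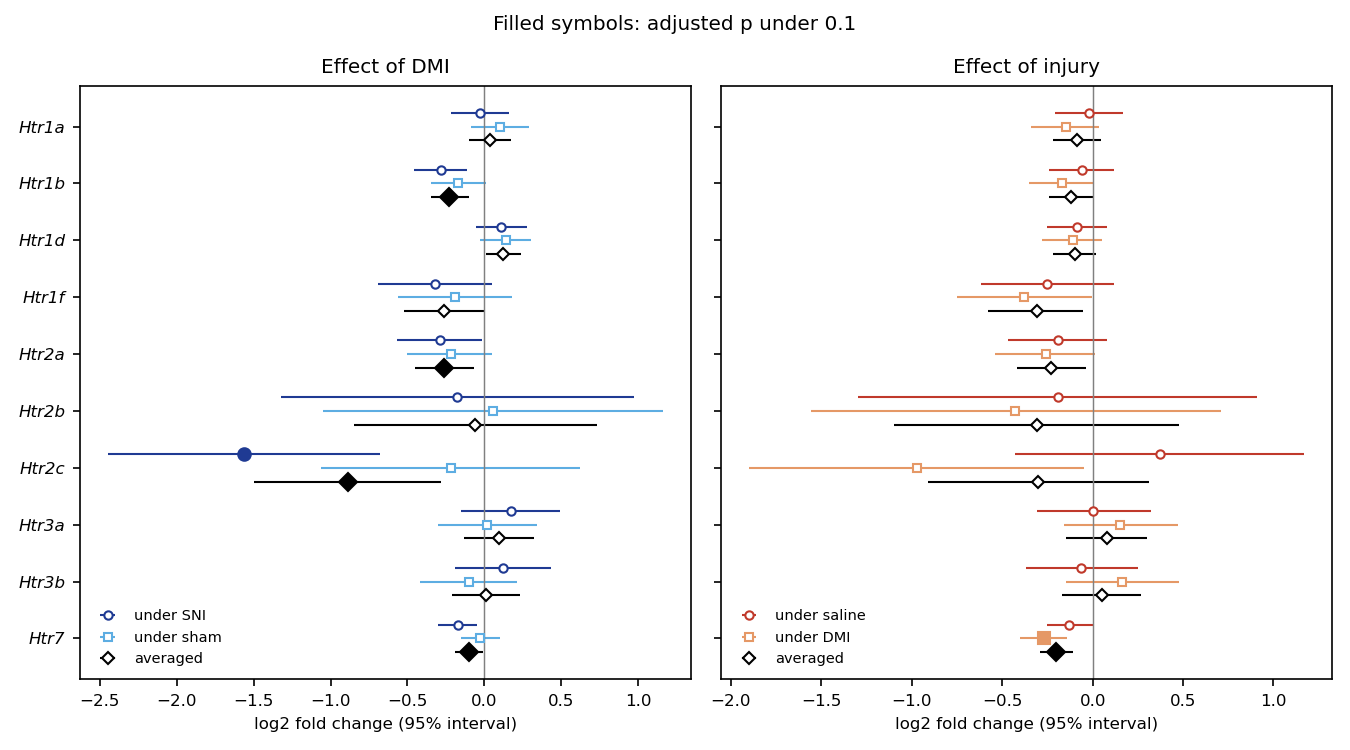
Log2 fold changes (points) with 95% intervals for the 10 serotonin receptor genes, on the left for DMI under SNI, under sham and averaged, and on the right for injury under saline, under DMI and averaged. Filled symbols have an adjusted p under 0.1, as for Htr7 in the averaged injury effect (-0.20) and for Htr1b, Htr2a, Htr2c and Htr7 in the averaged DMI effect.

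**Figure D5:**
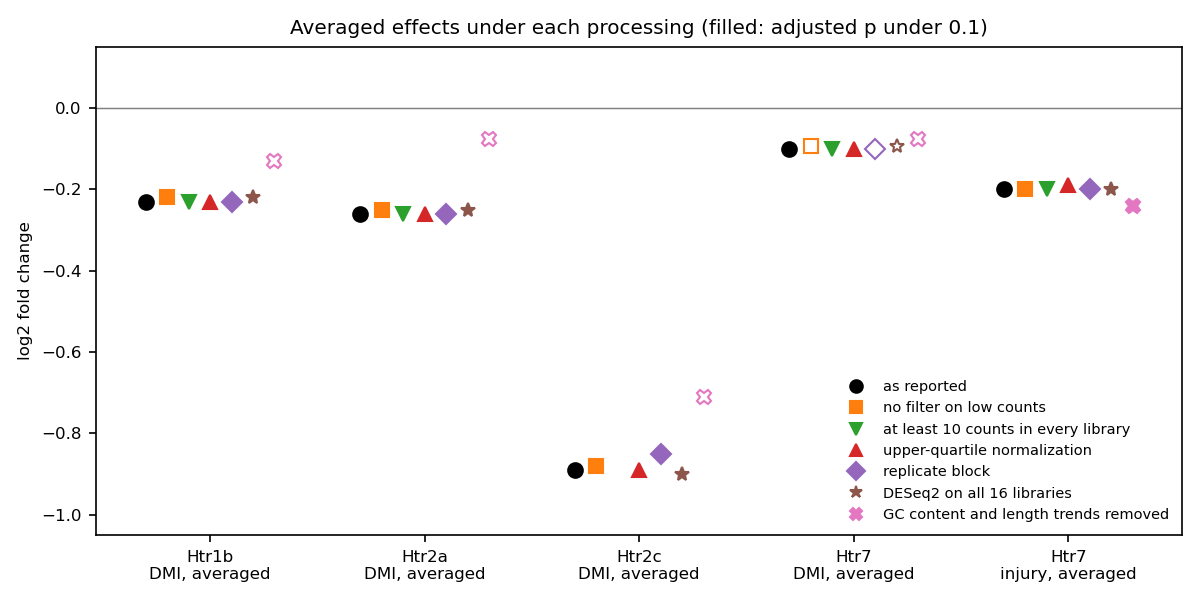
Log2 fold changes of the averaged DMI effect for Htr1b, Htr2a, Htr2c and Htr7 and of the averaged injury effect for Htr7 as reported and under each other processing, with filled symbols at an adjusted p under 0.1. All values are below 0. Once those trends are taken out, Htr2a lies at -0.076 and Htr7 after injury at -0.24.

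The 4 genes called lower in the averaged DMI effect differ in their start regions. The 100 bases upstream of their outermost start in RefSeq (GRCm38.p6) or GENCODE are shown because these genes shared that direction. Capitals mark a GC box, the motif GGGCGG or its complement. The stretches are chr9:81633833-81633932 on the minus strand for Htr1b, chr14:74640740-74640839 on the plus strand for Htr2a, chrX:146962413-146962512 on the plus strand for Htr2c and chr19:36057508-36057607 on the minus strand for Htr7.
Htr1b: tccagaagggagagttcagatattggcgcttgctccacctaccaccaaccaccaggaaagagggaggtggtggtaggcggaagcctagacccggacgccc
Htr2a: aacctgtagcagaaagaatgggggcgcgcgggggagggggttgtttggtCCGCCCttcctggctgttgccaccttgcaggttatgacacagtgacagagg
Htr2c: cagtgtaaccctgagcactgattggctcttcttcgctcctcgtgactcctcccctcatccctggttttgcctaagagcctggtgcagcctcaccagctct
Htr7: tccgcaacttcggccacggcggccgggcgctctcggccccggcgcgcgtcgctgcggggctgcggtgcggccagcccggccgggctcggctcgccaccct

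The stretch of Htr7 is 83% G and C, against 60.0% for Htr1b and Htr2a and 57.0% for Htr2c. In windows of 250 bases before to 50 after each RefSeq start, searched on both strands, the GC box was present in 5 of 10 windows of 9 receptor genes (Htr1a, both windows of Htr1d, Htr1f and Htr2a) and in 35.7% of 32851 mouse promoter windows. The cyclic AMP response element TGACGTCA was in 0 of the 10 and in 1.79% of all windows, and its part TGACG was in 1, that of Htr7, and in 20.8%. The AP-1 motif TGAGTCA (5.20% of all windows) and TATAAA (13.6%) were in 0 of the 10. Htr3a had no entry.

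The gene bodies and their neighbours bear on what the counts can hold. Htr7 (ENSMUSG00000024798) spans 98.8 kb at chr19:35958734-36057507 with no overlapping gene. Htr1b (ENSMUSG00000049511, chr9:81628291-81633828) shares 852 exon bases with the antisense gene D430036J16Rik, which itself was at 1.32 to 2.80 CPM. Htr2b (ENSMUSG00000026228, chr1:86099026-86111970) shares 252 exon bases with Psmd1 on the other strand, a proteasome gene at 212 to 256 CPM, so its few reads are uncertain where strand was not used in counting. Htr2c (ENSMUSG00000041380, chrX:146962513-147197277) holds 8 genes of small RNAs in its introns, none of which shares exon bases with it.

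Of the 4 serotonin receptor genes outside the 10, 2 were called lower in SNI-Saline versus Sham-Saline, beside 6.18% of all genes. In Sham-DMI versus Sham-Saline 1 was called lower, beside 11.9%. The averaged injury effect had 2 called lower, beside 8.43%, and the averaged DMI effect 1, beside 15.8%. Htr4, a Gs-coupled receptor, was at 19.3, 12.2, 15.8 and 14.7 CPM in the Sham-Saline mice, 11.4, 9.92, 13.0 and 9.78 in SNI-Saline, 12.3, 12.8, 11.2 and 10.3 in Sham-DMI and 8.03, 11.2, 8.99 and 8.06 in SNI-DMI. Its level was lower after SNI in saline mice (-0.49, SE 0.136, adjusted p = 0.0442 by edgeR) and with DMI in sham mice (-0.41, SE 0.136, adjusted p = 0.0475). It was also called lower in the averaged injury (-0.43, adjusted p = 0.0153) and averaged DMI (-0.35, adjusted p = 0.0159) effects. All of these contrasts share the Sham-Saline mice. Htr5a, a Gi-coupled receptor, was at 8.57, 6.92, 7.82 and 7.83 CPM in Sham-Saline and at 6.54, 6.68, 6.07 and 5.81 in SNI-Saline. These groups did not overlap, as for 15.4% of all genes (-0.31, SE 0.102, adjusted p = 0.0764 by edgeR). Htr5a was also called lower in the averaged injury effect (-0.24, adjusted p = 0.0486). Htr5b (8.54 CPM over the 16 mice) and Htr6 (0.554 CPM) were not called in any of the 7 contrasts.

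Among the 13 genes of serotonin synthesis, transport and breakdown, Slc6a4, the serotonin transporter, was the 1 called in SNI-Saline versus Sham-Saline, beside 12.0% of all genes. It rose from 0.223 to 1.14 CPM (log2 fold change 2.35, SE 0.438, adjusted p = 0.00965 by edgeR), and its averaged injury effect was 2.09 (SE 0.307, adjusted p = 0.000949). Slc18a2, which loads monoamines into vesicles, fell with DMI in sham mice from 6.68 to 4.38 CPM (-0.61, SE 0.163, adjusted p = 0.0175), where Maoa and Maob, which degrade monoamines, were also called lower and Spr higher. In that comparison 3 of the 13 were called lower, beside 11.9% of all genes, and 1 higher, beside 11.6%. Tph1 and Tph2, which make serotonin, were at 0.212 and 1.60 CPM in Sham-Saline and were not called.

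Downstream of the receptors, 4 of 10 G-protein alpha subunit genes were called in SNI-Saline versus Sham-Saline, all lower, beside 6.18% of all genes, with Gnaq from 441 to 359 CPM (-0.30, SE 0.0666, adjusted p = 0.0205 by edgeR). In Sham-DMI versus Sham-Saline 4 of 10 were called lower, beside 11.9% of all genes, among them Gnaq (-0.21, SE 0.0666, adjusted p = 0.0384) and Gnai1 (-0.17, SE 0.0427, adjusted p = 0.0118). In SNI-DMI versus SNI-Saline Gnai1 alone of the 10 was called, beside 2.93% of all genes (-0.18, SE 0.0428, adjusted p = 0.0674). The injury and the sham DMI contrasts share the Sham-Saline mice. Of the 16 effector genes tested, Kcnj6, a potassium channel subunit gated by Gi-coupled receptors, was the 1 called after injury, beside 12.0% of all genes. It fell from 1.43 to 0.709 CPM (-1.0, SE 0.279, adjusted p = 0.0450). With DMI in sham mice 4 of 16 were called lower, beside 11.9% of all genes, Kcnj6 (-1.04, SE 0.281, adjusted p = 0.0183), Adcy9 (an adenylyl cyclase, -0.37, SE 0.114, adjusted p = 0.0362), Plcb1 and Plcb4.

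Of 12 genes for partners and regulators of the receptors, S100a10, which encodes the p11 protein known to bind 5-HT1B and 5-HT4 receptors, was higher after SNI in saline mice (396 against 346 CPM, 0.19, SE 0.0611, adjusted p = 0.0679 by edgeR) and with DMI in sham mice (422 CPM, 0.29, SE 0.0611, adjusted p = 0.00559). Grk3, a kinase that desensitizes G-protein-coupled receptors, was lower in the same comparisons (-0.37, SE 0.0904, adjusted p = 0.0298, and -0.30, SE 0.0904, adjusted p = 0.0330). After SNI 1 of the 12 was called higher and 1 lower, beside 5.85% and 6.18% of all genes. With DMI in sham mice 1 was called higher and 2 lower, beside 11.6% and 11.9%. Both comparisons share the Sham-Saline mice. In SNI-DMI versus SNI-Saline Ric3, a chaperone of 5-HT3 and nicotinic receptors, was the 1 called of the 12 (-0.21, adjusted p = 0.0904), where 2.93% of all genes were called. Among the effectors Adcy9 was called in that comparison (-0.41, SE 0.115, adjusted p = 0.0973). In SNI-DMI versus Sham-DMI Slc6a4 was at 1.03 against 0.283 CPM, without overlap, and missed the threshold (1.83, SE 0.430, adjusted p = 0.108).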

How the data were processed

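The deposited values are whole-number counts per Ensembl gene, 1 table per mouse, without normalization. The authors prepared stranded mRNA libraries, sequenced 50-base read pairs and used the NGS-Data-Charmer pipeline for alignment to mm10, and the submitters' processing notes name HISAT2, HTSeq and DESeq2. The annotation release, the versions of HISAT2 and HTSeq and the strand setting are not given in the sources used here. Symbols, coordinates and merged exon lengths came from GENCODE M21 (GRCm38), and start regions with their sequences from RefSeq (GRCm38.p6). The printed stretches of 100 bases end at the outermost start of both annotations.

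Genes were kept by filterByExpr in edgeR 4.0.16 (R 4.3.3) with default settings and scaled by TMM, and glmQLFit was fitted to all 16 libraries with 1 coefficient per group. Benjamini-Hochberg adjustment ran over 21371 genes, with calls at an adjusted p under 0.1. SEs are the absolute log2 fold change divided by the square root of F. Single values of 4 against 4 mice were compared by exact two-sided permutation of log2 CPM (prior count 2). The procedure was tested on simulated data. Alternatives used DESeq2 1.42.0, other filters and scaling, a replicate block, the study's cut-offs, each library left out, and per-library trends on GC content and length (mgcv 1.9.3, basis size 8).

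Named were all 10 receptor genes and, from lists of related genes, some of the members with an adjusted p under 0.1 (up to 5 per direction and comparison), with others given for context. Members of those lists that are not named may also have been called. The receptor genes and all lists were chosen with earlier results of these data known. Reads on genes ranged from 41194238 to 73920332 per library. Averaged over genes, replicate mice differed by far more than counting error (chi-square per gene of at least 9.66). This need not hold for each receptor gene. The coefficient of variation within a group was 1.50% for Htr7 in Sham-Saline at 1120 to 1428 reads, and 30.7% for Htr1f in Sham-DMI at 225 to 562 reads.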

Additional observations from a re-analysis of the deposited data

Results flagged for a closer look

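Of the 40 combinations of receptor gene and group, 1 had a mouse far from the rest by Dixon's test at the 95% level, which chance alone gives for about 1 in 20. Htr7 was at 16.4 CPM in SNI-Saline replicate 3 and at 18.5 to 18.9 CPM in the other mice of that group. The same mouse was also low in Htr3a (157 CPM) and Htr3b (21.2 CPM), and the cause was not tested. Without it the averaged DMI effect on Htr7 was -0.13 (adjusted p = 0.0442 by edgeR). For SNI-Saline versus Sham-Saline the log2 fold change of Htr7 was -0.13 with all mice and ran from -0.14 to -0.075 over the 16 fits without 1 library.

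The effect of DMI on Htr2c under SNI minus that under sham was -1.35 on the log2 scale, with an unadjusted p of 0.0328 and an adjusted p of 0.619 by edgeR. It rests on 3 to 30 reads per library. The adjusted p was 0.484 to 0.777 over the other alternatives that gave one.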

How the results depend on the processing

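In SNI-Saline versus Sham-Saline 0 receptor genes were called under every alternative run. In SNI-DMI versus SNI-Saline the 1 called became 0 with no filter on low counts, 0 with the replicate block, 0 with GC content and length trends removed, 2 with upper-quartile normalization (Htr1b and Htr2c) and 2 with DESeq2. Without 1 library it was 0 to 2. In Sham-DMI versus Sham-Saline it was 0 to 1 without 1 library (Htr1f without Sham-DMI 2, Htr1b without SNI-DMI 2). In SNI-DMI versus Sham-DMI the 1 called became 0 with no filter, 0 with the replicate block and 0 with edgeR on the 8 libraries of the contrast, 2 under the study's cut-offs, and 0 to 1 without 1 library. The difference between both DMI effects had 1 (Htr2c) under the study's cut-offs. The 4 called in the averaged DMI effect became 1 with the trends removed, 1 under the study's cut-offs (Htr2c) and 2 to 4 without 1 library (2, Htr1b and Htr2c, without Sham-Saline 3 or SNI-DMI 2). Of these, Htr7 also lost its call with no filter, the replicate block and DESeq2. DESeq2 also made 4 calls, with Htr1d, called higher, in place of Htr7, where it called 6864 of 38180 genes. The 1 called in the averaged injury effect became 2 with the replicate block, 3 with DESeq2, 0 under the study's cut-offs and 1 to 3 without 1 library (3 without Sham-DMI 1). Over all genes, the 626 called in SNI-DMI versus SNI-Saline became 172 with the replicate block, 51 with the trends removed, 1859 with DESeq2 and 1812 with edgeR on 8 libraries, and the 86 in SNI-DMI versus Sham-DMI became 310 with no filter, 216 with the trends removed, 502 with DESeq2 and 9 with edgeR on 8 libraries. With the trends removed, 2571 became 1039 in SNI-Saline versus Sham-Saline and 3449 became 2195 in the averaged injury effect, and DESeq2 called 16 instead of 0 for the difference between both DMI effects. Except where an alternative tests other genes or fewer libraries, the cause was not tested. The replicate numbers share only a number. Deviations of same-numbered mice correlated at -0.0813 to 0.184, and 7 of 16 libraries correlated best with their own number.

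Signs turned only for effects without a call. With the trends removed these were Htr1f (0.02), Htr2c (0.002), Htr3a (-0.016) and Htr7 (0.0031) in Sham-DMI versus Sham-Saline, Htr3a in SNI-Saline versus Sham-Saline (-0.09; -0.016 with the block) and in the averaged injury effect (-0.019), and Htr2b in the averaged DMI effect (0.0085). Without 1 library, log2 fold changes in SNI-Saline versus Sham-Saline ran from -0.063 to 0.04 for Htr1a, -0.50 to 0.10 for Htr2b, -0.11 to 0.12 for Htr3a and -0.18 to 0.051 for Htr3b. In SNI-DMI versus SNI-Saline they ran from -0.087 to 0.025 for Htr1a and -0.45 to 0.16 for Htr2b. In Sham-DMI versus Sham-Saline they ran from -0.22 to 0.34 for Htr2b, -0.35 to 0.011 for Htr2c, -0.054 to 0.14 for Htr3a, -0.17 to 0.0075 for Htr3b and -0.041 to 0.013 for Htr7. In the difference between both DMI effects they ran from -0.091 to 0.024 for Htr1d, -0.28 to 0.083 for Htr1f, -0.18 to 0.0056 for Htr2a and -0.53 to 0.078 for Htr2b. In the averaged DMI effect they ran from -0.19 to 0.12 for Htr2b and -0.047 to 0.092 for Htr3b, and in the averaged injury effect from -0.0056 to 0.11 for Htr3b. A minimum of 10 counts in every library left out Htr2b and Htr2c.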
